A study of Mus musculus with 9 samples.

Results

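Genes that make NADPH in the cytosol or carry the pentose phosphate pathway were followed through an RNA-seq series of mouse macrophages treated with lipopolysaccharide (LPS) and skatole. They were chosen by symbol, as G6pdx, Pgls, Pgd, Rpia, Rpe, Tkt, Taldo1, Me1, Idh1 and Nadk, and make up 10 of the 55401 genes in the deposited table of TPM, a measure of transcript abundance scaled by transcript length and to a fixed total per sample. RAW264.7 is a macrophage line grown from a tumour that Abelson murine leukaemia virus raised in a male mouse, and the labels give its genotype as WT. The cells received DMSO (the solvent control), LPS (labelled DMSO+LPS) or LPS with skatole (LPS + Ska), and the labels give 24 h of treatment while the methods section of the study gives a longer time. Each group held 3 samples, numbered 5, 6 and 7, and no label says whether they were separate cultures, so the spread between them may be technical. LPS is the endotoxin of Gram-negative bacteria, and skatole is 3-methylindole, a bacterial breakdown product of tryptophan and a ligand of the aryl hydrocarbon receptor (AhR). No group received skatole without LPS.

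NADPH is the electron donor that regenerates reduced glutathione and thioredoxin, feeds the phagocyte NADPH oxidase and nitric oxide synthase, and drives fatty acid and sterol synthesis. The oxidative branch of the pentose phosphate pathway turns glucose 6-phosphate into ribulose 5-phosphate and reduces NADP+ at the steps of G6pdx and Pgd, with Pgls between them. The non-oxidative branch exchanges sugar phosphates reversibly, through the isomerase Rpia, the epimerase Rpe, the transketolase Tkt and the transaldolase Taldo1, and links ribose with glycolysis. Cytosolic malic enzyme (Me1) and cytosolic isocitrate dehydrogenase (Idh1) make NADPH outside this pathway, and NAD kinase (Nadk) phosphorylates NAD+ to the NADP+ that all of them use. Several of these genes are known targets of the factor Nrf2, which binds antioxidant response elements.

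Promoter windows of 3 of the genes are shown because they hold the core of an antioxidant response element, TGACNNNGC, searched on both strands. The sequences are from RefSeq (GRCm38.p6), run 5′ to 3′ on the strand of the gene, and cover 250 bases before to 50 after an annotated start. Capitals mark the match. For G6pdx it lies on the other strand, where it reads TGACTGAGC, and begins 57 bases before the start (chrX:74428831-74429130, minus strand). For Pgd it lies just inside the transcript that begins at the second of its annotated starts (chr4:149166033-149166332, minus strand), so not before a start. The window of the other Pgd start, upstream at the 5′ end of the gene (chr4:149166656-149166955), held no match. For Me1 it begins 6 bases before the start (chr9:86695865-86696164, minus strand).
G6pdx: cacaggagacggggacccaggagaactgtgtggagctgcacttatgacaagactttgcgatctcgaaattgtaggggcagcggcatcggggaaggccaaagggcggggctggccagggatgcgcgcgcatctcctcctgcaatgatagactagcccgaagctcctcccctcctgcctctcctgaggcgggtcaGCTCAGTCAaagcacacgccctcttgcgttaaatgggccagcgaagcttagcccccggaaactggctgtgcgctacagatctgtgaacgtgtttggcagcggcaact
Pgd: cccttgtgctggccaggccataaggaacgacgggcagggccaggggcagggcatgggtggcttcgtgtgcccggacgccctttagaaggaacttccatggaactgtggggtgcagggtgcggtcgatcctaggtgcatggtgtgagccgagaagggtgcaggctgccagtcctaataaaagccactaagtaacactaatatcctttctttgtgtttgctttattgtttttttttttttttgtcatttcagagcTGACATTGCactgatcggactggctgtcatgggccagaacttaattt
Me1: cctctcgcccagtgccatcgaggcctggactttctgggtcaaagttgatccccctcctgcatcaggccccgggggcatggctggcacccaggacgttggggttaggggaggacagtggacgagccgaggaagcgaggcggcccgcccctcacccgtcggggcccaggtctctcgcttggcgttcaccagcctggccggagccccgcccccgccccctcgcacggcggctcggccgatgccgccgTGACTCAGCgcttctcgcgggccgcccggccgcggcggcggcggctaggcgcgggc

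All 10 genes had at least 1 RefSeq window, 14 windows in all. The antioxidant response element core was in 3 of the 14, and in 12.4% of the 32851 windows of all genes. GCGTG, the core that AhR binds, was in 9 windows of 8 of the genes (all but Rpe and Me1) and in 32.4% of all windows. No window of the 10 genes held the NF-kB consensus, which was in 8.46% of all windows. A match describes the letters of the window and not binding.

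The deposited values in the LPS columns and in the LPS + Ska columns were tied. Replicate 5 was the mean of replicates 6 and 7 to within 1e-05 TPM in all 17950 genes above 0 in both LPS columns and in all 17658 such genes in the LPS + Ska columns. In DMSO this held for 10 of 16674 genes. Each treated group thus holds at most 2 independent values per gene, and its SD over 3 columns (n = 3 columns below) is that of tied values. The limma SE, confidence intervals and adjusted p below count all 3 columns of each treated group, more than its independent values. Leaving out a column of a treated group, as done below, removes no independent value, because the other 2 columns still determine it. It changes how the values are weighted and is not a fit without a sample. TPM carries no sequencing depth, so the depth is unknown and no counting interval is given. The columns each summed to between 999895 and 1000145 TPM, and 12498 to 13012 genes reached 1 TPM. The macrophage markers Csf1r (454 to 912 TPM), Cd68 (574 to 857 TPM) and Spi1 (211 to 411 TPM) were present in every column. Of 15 markers of T cells, B cells, fibroblasts and epithelial cells, 10 were at 0 in all 9 columns and none was above 0.672 TPM. Of the 8 macrophage markers, lysozyme (Lyz2) made up most of the summed TPM, at 8866 to 9673 TPM in DMSO, 4219 to 4627 TPM in LPS and 9915 to 10207 TPM in LPS + Ska. The other 7 summed to 2213 to 2406 TPM in DMSO, 1555 to 1640 TPM in LPS and 1464 to 1578 TPM in LPS + Ska, and the part of these shifts in the results below was not tested.

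Expression of the 10 genes fell in part with LPS and rose in part with skatole. With LPS, 5 of the 10 fell (G6pdx, Pgls, Pgd, Tkt and Taldo1) and Rpe rose, against 20.0% of the 12819 tested genes called lower and 12.7% called higher. With skatole added to LPS, Pgd, Taldo1, Me1 and Idh1 rose and none fell, against 3.35% of tested genes called higher and 6.14% called lower. By the same limma test, none of the 10 was lower in that comparison at an unadjusted p under 0.05 either. No share of all tested genes was computed at that limit. In LPS + Ska compared with DMSO, the same 5 genes were lower, and Rpe and Idh1 were higher, against 25.3% of tested genes called lower and 11.4% called higher. A call needed an adjusted p (Benjamini-Hochberg, over the 12819 genes with a mean of at least 1 TPM) below 0.05 together with a change of more than 1.5-fold upward or to under 0.67 of the level. All 10 genes passed the filter on mean TPM. The median log2 fold change of the 10 was -0.43 for LPS and DMSO, 0.30 for LPS + Ska and LPS, and -0.27 for LPS + Ska and DMSO, beside -0.07, -0.10 and -0.18 over all tested genes. The comparisons share columns, so their values are given side by side and were not correlated.

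The split of calls over all genes depended on scaling. In the deposited TPM, 38.9% of the genes called for LPS and DMSO were higher, 35.3% for LPS + Ska and LPS, and 31.0% for LPS + Ska and DMSO. With median-ratio scaling, which sets the typical gene equal across columns, these became 49.0%, 52.6% and 49.8%. That scaling moved the median log2 fold change of all genes from -0.18 to -0.0016 for LPS + Ska and DMSO, from -0.10 to -0.0017 for LPS + Ska and LPS, and from -0.07 to 0.02 for LPS and DMSO. Each call of the 10 genes that this scaling ends or adds is named below with its value.

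**Figure D1:**
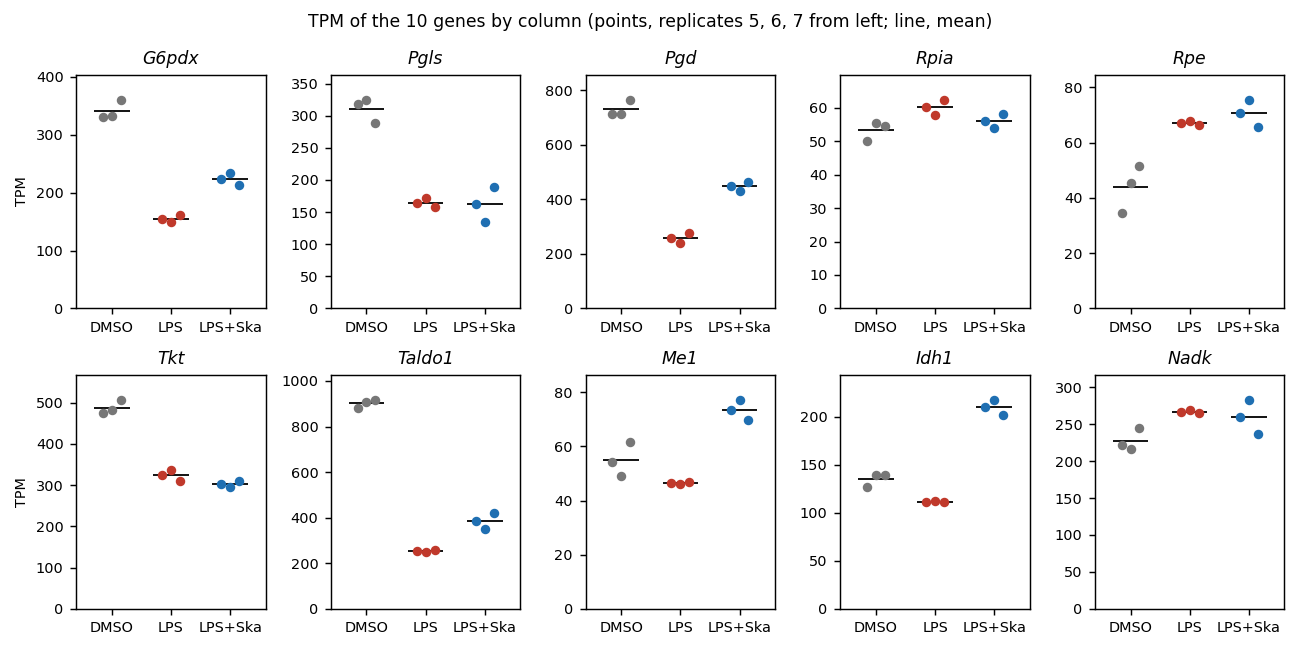
TPM of each of the 10 genes (y axis, from 0, a scale of its own in each panel) in the 9 columns by group (x axis), with points for replicates 5, 6 and 7 and a line at the mean. The LPS columns lie below the DMSO columns for G6pdx, Pgls, Pgd, Tkt and Taldo1, and the LPS + Ska columns lie above both other groups for Me1 and Idh1.

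G6pdx (ENSMUSG00000031400, chrX:74409483-74429194, minus strand, GRCm38) encodes glucose-6-phosphate dehydrogenase, the first and committing enzyme of the oxidative branch. Its level was 331, 333 and 361 TPM in DMSO, 155, 149.5 and 161 TPM in LPS, and 224, 234 and 214 TPM in LPS + Ska. No column of one group overlapped another group, and LPS + Ska lay between the other two. The means were 342 ± 16.6 TPM in DMSO, 155 ± 5.74 TPM in LPS and 224 ± 10.2 TPM in LPS + Ska (SD, n = 3 columns). G6pdx fell with LPS by 1.13 on the log2 scale (SE 0.06, limma with Benjamini-Hochberg adjusted p = 4.5e-07), to 45.5% of the DMSO mean. Between LPS + Ska and LPS the difference was 0.52 (95% confidence interval 0.40 to 0.65, adjusted p = 3.4e-04), which passed the p limit and lay inside the fold limit. It was 0.63 with median-ratio scaling, past both limits. LPS + Ska remained below DMSO (-0.61, adjusted p = 1.6e-05, 65.5% of the DMSO mean). That call was lost with median-ratio scaling (-0.41), after TPM were rescaled with ribosomal protein and mitochondrial-genome genes left out (-0.55), without DMSO replicate 7 (-0.57) and without LPS + Ska replicate 7 (-0.58). The whole of G6pdx lies inside Ikbkg, a gene on the opposite strand with 17.5 to 32.6 TPM, and since the library kit does not mark strand, reads from bases that both transcribe cannot be told apart.

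Pgls (ENSMUSG00000031807, chr8:71592176-71601092, plus strand) encodes 6-phosphogluconolactonase, which opens the lactone that G6pdx makes. Its columns held 318, 325 and 289 TPM in DMSO, 165, 172 and 158 TPM in LPS, and 163, 135 and 189.9 TPM in LPS + Ska. Both treated groups lay below every DMSO column, and they overlapped each other. Pgls fell with LPS by 0.91 on the log2 scale (SE 0.11, adjusted p = 8.7e-05) to 53.0% of the DMSO mean, and stood at 52.3% in LPS + Ska (-0.94, adjusted p = 6.0e-05). The difference of LPS + Ska from LPS was -0.03, with a 95% confidence interval of -0.28 to 0.21 (adjusted p = 0.85), and its sign turned with median-ratio scaling (0.07) and without LPS + Ska replicate 6 (0.09). Its interval thus lay below the 0.52 and 0.79 of its pathway neighbours G6pdx and Pgd, although the difference between genes was not tested. Pgls shares 3445 bases of its span with Fam129c on the same strand (1.94 to 8.48 TPM).

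Pgd (ENSMUSG00000028961, chr4:149149991-149166771, minus strand) encodes 6-phosphogluconate dehydrogenase, the second NADPH-yielding step. It was at 714, 713 and 766 TPM in DMSO, at 259, 242 and 277 TPM in LPS, and at 448, 431 and 465 TPM in LPS + Ska. The groups did not overlap, and LPS + Ska was again in the middle. Pgd fell with LPS by 1.49 on the log2 scale (SE 0.06, adjusted p = 1.4e-07), to 35.5% of the DMSO mean. With skatole it rose by 0.79 over LPS (95% confidence interval 0.65 to 0.93, adjusted p = 5.9e-05), the largest of such differences among the genes of the pathway proper, and reached 61.3% of the DMSO mean. Against DMSO it stayed lower (-0.70, adjusted p = 1.0e-05), a call lost with median-ratio scaling (-0.51).

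**Figure D2:**
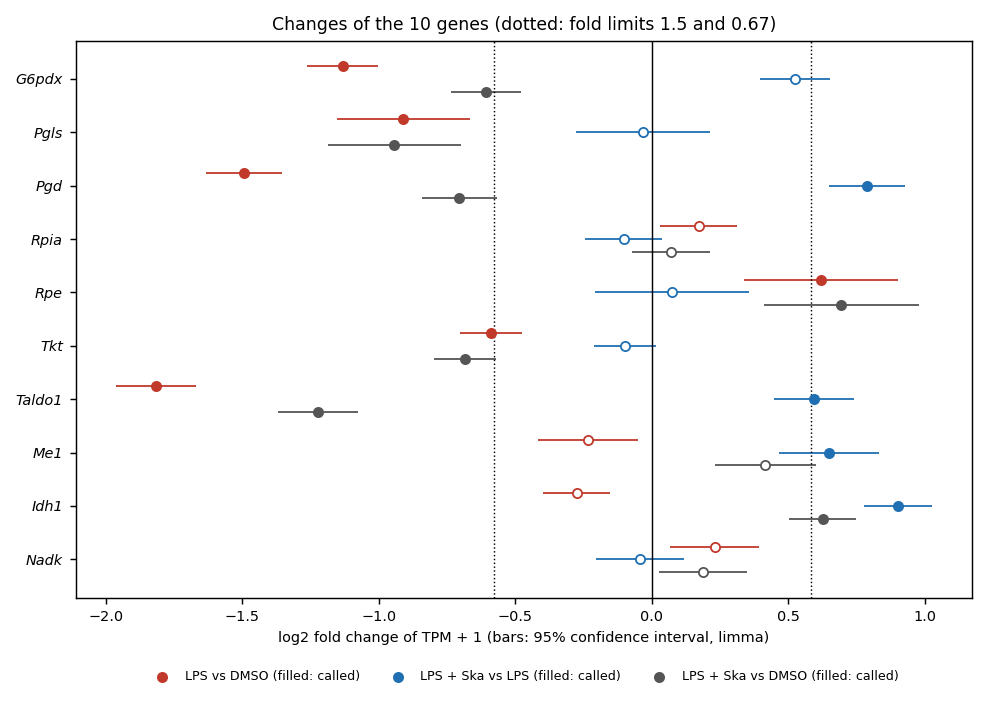
Log2 fold change of TPM + 1 (x axis) for each of the 10 genes (y axis) in the 3 comparisons, with bars for the 95% confidence interval from limma. Filled points are called changes, open points are not, and dotted lines are the fold limits of 1.5 and 0.67. Pgd, Taldo1, Me1 and Idh1 have filled points right of 0 for LPS + Ska and LPS.

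In the non-oxidative branch, Taldo1 and Tkt fell with LPS and Rpe rose, and of these Taldo1 alone was called again when skatole was added. Taldo1 (ENSMUSG00000025503, chr7:141392199-141402968, plus strand) moves a three-carbon unit between sugar phosphates. It was the most abundant of the 10 in DMSO, at 880.0, 906 and 917 TPM, and fell to 255, 250.4 and 260.1 TPM in LPS, with 387, 352 and 422 TPM in LPS + Ska. The columns of the 3 groups did not overlap. The fall with LPS was 1.82 on the log2 scale (SE 0.06, adjusted p = 6.9e-08), to 28.3% of the DMSO mean, the lowest share among the 10. Skatole raised Taldo1 over LPS by 0.59 (95% confidence interval 0.45 to 0.74, adjusted p = 3.4e-04), just past the fold limit. That call was lost when LPS replicate 6 (0.58) or LPS + Ska replicate 7 (0.53) was left out. At 42.9% of the DMSO mean, LPS + Ska stayed lower than DMSO (-1.22, adjusted p = 6.3e-07).

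Tkt (ENSMUSG00000021957, chr14:30548359-30574720, plus strand) encodes transketolase, the thiamine-dependent enzyme that moves two-carbon units. Its columns read 474, 482 and 506 TPM in DMSO, 324, 337 and 311 TPM in LPS, and 303, 294 and 311 TPM in LPS + Ska. Both treated groups were below DMSO, and the lowest LPS column and the highest LPS + Ska column differed by less than 1 TPM. Tkt fell with LPS by 0.59 (SE 0.05, adjusted p = 1.2e-05), to 66.4% of the DMSO mean. This call sat on the fold limit and was lost with median-ratio scaling (-0.50), after TPM were rescaled with ribosomal protein and mitochondrial-genome genes left out (-0.55), and without DMSO replicate 7 or LPS replicate 7 (-0.56 each). LPS + Ska differed from LPS by -0.10 (95% confidence interval -0.21 to 0.02, adjusted p = 0.18), and by 0.01 with median-ratio scaling. Against DMSO, Tkt was lower in LPS + Ska by -0.69 on the log2 scale (adjusted p = 3.6e-06), a call lost with median-ratio scaling (-0.49).

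Rpe (ENSMUSG00000026005, chr1:66700831-66719805, plus strand) encodes the ribulose-5-phosphate epimerase and was the least abundant of the 10 in DMSO, at 34.4, 45.5 and 51.5 TPM. It rose to 66.98, 67.7 and 66.2 TPM in LPS, and was at 70.6, 75.5 and 65.8 TPM in LPS + Ska. The treated groups overlapped each other and lay above all DMSO columns. The rise was 0.62 for LPS (SE 0.13, adjusted p = 0.0021) and 0.69 for LPS + Ska (adjusted p = 9.9e-04), both against DMSO. Without DMSO replicate 5, the lowest column, the values were 0.46 and 0.53 and neither was called. Kansl1l, which overlaps 558 bases of Rpe on the opposite strand, moved the same way, from 8.52 to 12.5 TPM in DMSO to 19.1 to 22.6 TPM in LPS and 15.01 to 18.2 TPM in LPS + Ska, and its part in the Rpe values was not tested. LPS + Ska and LPS differed by 0.07 (95% confidence interval -0.21 to 0.36, adjusted p = 0.69).

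Rpia (ENSMUSG00000053604, chr6:70765720-70792232, minus strand) encodes the ribose-5-phosphate isomerase and was not called in any comparison. Its level was 49.98, 55.5 and 54.4 TPM in DMSO, 60.2, 57.9 and 62.4 TPM in LPS, and 56.0, 53.8 and 58.1 TPM in LPS + Ska. The LPS columns were above the DMSO columns by 0.17 on the log2 scale (adjusted p = 0.038), inside the fold limit. LPS + Ska differed from LPS by -0.10 (95% confidence interval -0.24 to 0.04, adjusted p = 0.25) and overlapped both other groups. The isomerase and the epimerase, which share the substrate ribulose 5-phosphate, thus did not give the same calls in the main fit. Without DMSO replicate 5 neither was called, and the difference between the genes was not tested.

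Me1 and Idh1, the cytosolic enzymes that make NADPH outside the pathway, were the genes whose LPS + Ska columns lay above DMSO as well as LPS. Me1 (ENSMUSG00000032418, chr9:86581371-86695953, minus strand) was at 54.1, 49.2 and 61.5 TPM in DMSO, 46.4, 46.2 and 46.7 TPM in LPS, and 73.4, 77.2 and 69.6 TPM in LPS + Ska. Its groups did not overlap, with LPS lowest. The difference of LPS from DMSO was -0.23 (SE 0.08, adjusted p = 0.033), inside the fold limit. With skatole, Me1 rose over LPS by 0.65 (95% confidence interval 0.47 to 0.83, adjusted p = 7.3e-04). Against DMSO the difference was 0.42 (adjusted p = 0.0015), inside the fold limit, and 0.61 with median-ratio scaling, past it. A short copy on another gene model, Gm7329, matches Me1 at 99.0% over 210 bases and ran from 3.27 to 5.37 TPM in DMSO, from 5.38 to 9.54 TPM in LPS and from 11.6 to 15.8 TPM in LPS + Ska. Another, Gm7049, matches at 98.5% and stayed between 2.18 and 4.50 TPM. How reads were split between Me1 and these models is not given in the sources used here.

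Idh1 (ENSMUSG00000025950, chr1:65158616-65186500, minus strand) oxidises isocitrate in the cytosol and peroxisomes. Its columns held 127, 139.9 and 139.7 TPM in DMSO, 112, 113 and 111 TPM in LPS, and 209.9, 218 and 202 TPM in LPS + Ska. Again the groups did not overlap, with LPS lowest and LPS + Ska highest. LPS stood 0.28 below DMSO on the log2 scale (-0.28, SE 0.05, adjusted p = 0.0019), inside the fold limit. With skatole Idh1 rose over LPS by 0.90 (95% confidence interval 0.78 to 1.02, adjusted p = 1.6e-05), the largest of the 10 differences in that comparison. It also rose over DMSO by 0.63 (adjusted p = 1.0e-05), to 155% of the DMSO mean, a call lost without DMSO replicate 5 (0.58). Me1 reached 134% of its DMSO mean.

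Nadk (ENSMUSG00000029063, chr4:155562378-155591001, plus strand) supplies the NADP+ itself and was called in no comparison. Its columns were 222, 216 and 245 TPM in DMSO, 267, 269.5 and 265 TPM in LPS, and 260.0, 283 and 237 TPM in LPS + Ska. The LPS columns lay above DMSO by 0.23 (SE 0.07, adjusted p = 0.020), inside the fold limit. LPS + Ska overlapped both groups and differed from LPS by -0.04 (95% confidence interval -0.21 to 0.12, adjusted p = 0.69), with the sign turned by median-ratio scaling (0.06) and without LPS + Ska replicate 7 (0.02).

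TPM is scaled by transcript length, so levels can be set in order within a group. In DMSO the order was Taldo1, Pgd, Tkt, G6pdx, Pgls, Nadk, Idh1, Me1, Rpia and Rpe, and the columns overlapped between Me1 and Rpia and between Rpia and Rpe. In LPS, Tkt came first, then Nadk, Pgd, Taldo1, Pgls, G6pdx, Idh1, Rpe, Rpia and Me1, with overlaps between Nadk and Pgd, Pgd and Taldo1, and Pgls and G6pdx. In LPS + Ska, Pgd was first and Taldo1 second, followed by Tkt, Nadk, G6pdx, Idh1, Pgls, Me1, Rpe and Rpia, with overlaps between G6pdx and Idh1 and between Me1 and Rpe. Among all genes of the table by mean TPM, Taldo1 went from rank 139 in DMSO to 567 in LPS and 349 in LPS + Ska, and Pgd from 168 to 551 and 289. Idh1 moved from 1208 to 1516 and then to 712, and Nadk stayed between 531 and 644.

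The sum over the 10 genes was 3205 to 3392 TPM in DMSO, 1705 to 1718 TPM in LPS and 2154 to 2234 TPM in LPS + Ska. It was thus lowest in LPS, with no overlap between the groups. The mean sum took 0.329%, 0.171% and 0.219% of all TPM in that order of groups. Sums and ratios are given without a p, since an exact permutation test of 3 columns against 3 cannot go below 0.1. The oxidative genes G6pdx, Pgls and Pgd summed to 1363 to 1416 TPM in DMSO, 564 to 595 TPM in LPS and 800.1 to 869 TPM in LPS + Ska. The sum of the 4 non-oxidative genes was 1438 to 1529 TPM in DMSO, 699.7 to 713 TPM in LPS and 775 to 857 TPM in LPS + Ska. For both branches, skatole columns lay between the other groups without overlap. Me1 and Idh1 together gave 181 to 201 TPM in DMSO, 158 to 159 TPM in LPS and 272 to 295 TPM in LPS + Ska, and their mean share of the 10 genes went from 5.79% to 9.25% and 12.9%. The oxidative share was 42.1%, 33.9% and 38.0%, and the non-oxidative share 45.2%, 41.3% and 37.2%.

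**Figure D3:**
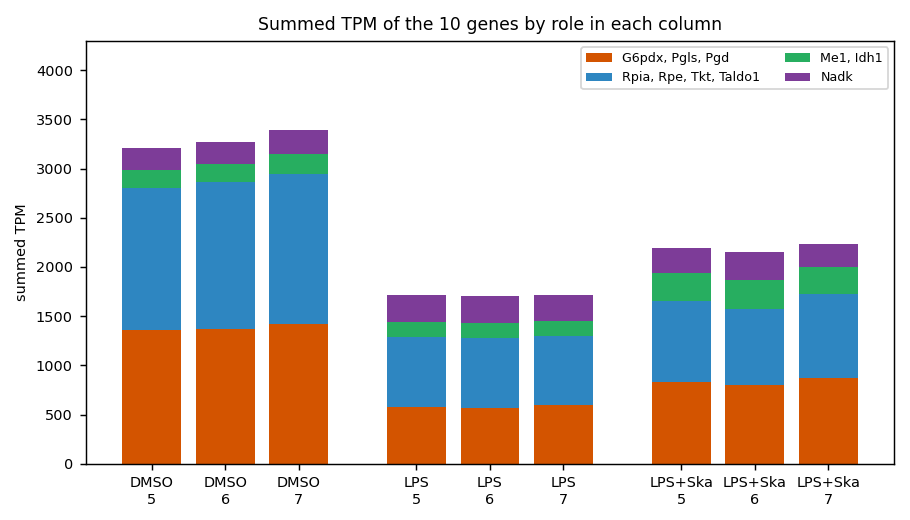
Summed TPM of the 10 genes (y axis, from 0) in each of the 9 columns (x axis), stacked by role. The whole bars are 3205 to 3392 TPM in DMSO, 1705 to 1718 TPM in LPS and 2154 to 2234 TPM in LPS + Ska, and the segment of Me1 and Idh1 is tallest in LPS + Ska.

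Ratios within a column do not depend on how columns are scaled. Pgd over G6pdx, the later over the earlier NADPH-yielding enzyme, was 2.12 to 2.16 in DMSO, 1.62 to 1.72 in LPS and 1.84 to 2.18 in LPS + Ska. LPS columns were lower than both other groups, and LPS + Ska spanned the DMSO values. Pgd over Pgls was 2.19 to 2.65 in DMSO, 1.40 to 1.76 in LPS and 2.45 to 3.18 in LPS + Ska. Taldo1 over Tkt, the transaldolase over the transketolase, went from 1.81 to 1.88 in DMSO to 0.744 to 0.837 in LPS and 1.19 to 1.36 in LPS + Ska. The transaldolase was thus the more abundant in DMSO and LPS + Ska, and the less abundant in LPS. Pgd over Tkt was 1.48 to 1.51 in DMSO and 1.46 to 1.497 in LPS + Ska, with 0.718 to 0.890 in LPS.

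Each of Idh1, Me1 and Nadk has a mitochondrial counterpart, and their ratios are given as a description. Idh1 over Idh2, the NADP-dependent mitochondrial isocitrate dehydrogenase, was 0.456 to 0.536 in DMSO, 0.645 to 0.672 in LPS and 1.44 to 1.80 in LPS + Ska, so that the cytosolic gene was the more abundant in LPS + Ska only. Idh2 itself fell against DMSO both with LPS (-0.67, adjusted p = 1.6e-05, a call lost with median-ratio scaling at -0.575) and with LPS + Ska (-1.05, adjusted p = 9.4e-07). Me1 over Me2, a mitochondrial malic enzyme that prefers NAD+, was 0.414 to 0.506 in DMSO, 0.442 to 0.446 in LPS and 0.732 to 0.733 in LPS + Ska. Nadk over the mitochondrial kinase Nadk2 was 8.75 to 9.91 in DMSO, 8.60 to 8.66 in LPS and 5.86 to 6.92 in LPS + Ska, while Nadk was called in no comparison. Idh1 over Me1 was 2.27 to 2.85 in DMSO, 2.38 to 2.44 in LPS and 2.82 to 2.90 in LPS + Ska, with DMSO overlapping both.

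**Figure D4:**
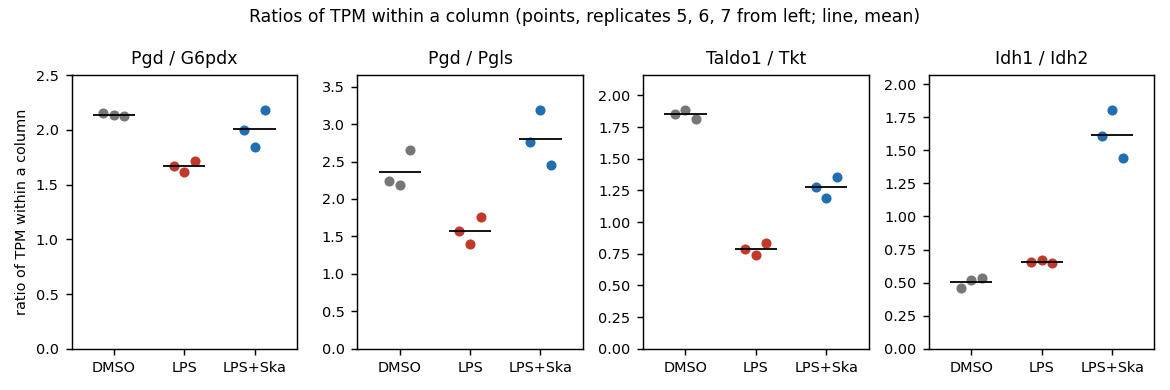
Ratios of TPM within a column (y axis, from 0) for Pgd over G6pdx, Pgd over Pgls, Taldo1 over Tkt and Idh1 over Idh2 by group (x axis), with points for replicates 5, 6 and 7 and a line at the mean. Taldo1 over Tkt is above 1 in DMSO and LPS + Ska and below 1 in LPS, and Idh1 over Idh2 is above 1 in LPS + Ska only.

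Around these genes, 59 others were listed by their place in NADPH metabolism, and 51 passed the filter. With LPS, 5 of the 51 were called higher and 19 lower (median log2 fold change -0.33), against 12.7% and 20.0% of all tested genes. With LPS + Ska compared with DMSO, 5 were higher and 20 lower (median -0.43), against 11.4% and 25.3%. Median-ratio scaling made these counts 6 and 16 with LPS, against 15.7% and 16.3% of all tested genes. For LPS + Ska compared with DMSO it made them 6 and 15, against 17.4% and 17.5%. The same shares over all genes stand beside the counts of the smaller lists below. With skatole added to LPS, 4 of the 51 were called higher and none lower (median -0.12), against 3.35% and 6.14% of all tested genes. The limma adjusted p alone, without the fold limits, gave 8 higher and 16 lower, against 8.89% and 19.7% of all tested genes. At an unadjusted limma p under 0.05, 8 were higher and 22 lower, and the share of all tested genes at this limit was not computed. All of the 4 called genes belong to the list of enzymes that use NADPH, and the supply lists gave no call in that comparison. These lists are small, so the lack of calls does not set them apart from the 3.35% and 6.14% of all tested genes. Genes of the supply lists passed the limma adjusted p alone in both directions, such as Hk3 (0.48, adjusted p = 0.0018) and Hk1 (-0.52, adjusted p = 2.5e-04).

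Of 12 further pentose phosphate and ribose genes, 9 were tested, and 1 was higher and 3 lower with LPS. The shares of all tested genes were 12.7% and 20.0%. The endoplasmic reticulum enzyme H6pd, which runs the first oxidative steps inside that organelle, fell from 15.2 to 17.7 TPM in DMSO to 4.62 to 6.12 TPM in LPS (-1.43, adjusted p = 6.7e-06) and was 6.01 to 6.63 TPM in LPS + Ska. Unlike for G6pdx, its LPS + Ska difference from LPS was 0.21 (95% confidence interval -0.04 to 0.46, adjusted p = 0.20), and the difference between the genes was not tested. Prps1, which makes phosphoribosyl pyrophosphate from ribose 5-phosphate, rose with LPS (0.62, adjusted p = 4.0e-05), as did Rpe, and lost the call without DMSO replicate 5 (0.56), also as Rpe did. The ribokinase gene Rbks (-1.13, adjusted p = 5.4e-04) and the sedoheptulokinase gene Shpk (-0.84, adjusted p = 0.0064) fell with LPS.

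Beside each list of this paragraph stand the 12.7% and 20.0% of all tested genes called higher and lower with LPS. For LPS + Ska compared with DMSO these shares were 11.4% and 25.3%, and for LPS + Ska and LPS 3.35% and 6.14%. Of the 5 genes that supply or divert glucose 6-phosphate, the hexokinases Hk1 and Hk3 fell with LPS (-0.58 and -0.99, adjusted p = 1.7e-05 and 5.0e-06). Hk1 sat on the fold limit, and its call was lost with median-ratio scaling (-0.49), with the rescaled TPM (-0.55), without DMSO replicate 7 (-0.55) and without LPS replicate 7 (-0.575). Hk1 and the isomerase Gpi1 were lower in LPS + Ska than in DMSO (-1.11 and -0.78, adjusted p = 3.8e-07 and 8.7e-07). Among 6 genes for malate and isocitrate, the substrates of Me1 and Idh1, none was higher in any comparison, and the citrate carrier Slc25a1 fell with LPS (-0.76, adjusted p = 1.4e-05) and was lower still against DMSO in LPS + Ska (-1.22, adjusted p = 7.6e-07). Of 10 tested mitochondrial and folate-linked NADPH genes, Mthfd2l (0.89, adjusted p = 3.2e-05) and Aldh1l2 (1.11, adjusted p = 7.8e-04) rose with LPS and Idh2 fell. In LPS + Ska compared with DMSO, Nadk2 (0.74, adjusted p = 1.3e-05), Mthfd2l (1.03, adjusted p = 1.0e-05) and Aldh1l2 (0.81, adjusted p = 0.0043) were higher and Idh2 was lower. Of 5 tested NAD supply genes, Nampt, the rate-limiting enzyme of NAD+ salvage, rose with LPS (0.79, adjusted p = 8.5e-06) and Nadsyn1 fell (-0.75).

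Of the 16 enzymes that use NADPH, 11 were called lower and 1 higher with LPS (median -0.73), against 20.0% and 12.7% of all tested genes. With skatole added to LPS, 4 were called higher and none lower (median -0.08), against 3.35% and 6.14%. The carbonyl reductase Cbr3 was at 27.5, 23.5 and 26.5 TPM in DMSO, 2.89, 2.62 and 3.16 TPM in LPS, and 16.7, 18.1 and 15.3 TPM in LPS + Ska, a rise of 2.19 over LPS (adjusted p = 3.2e-06). Blvrb, which reduces biliverdin and flavins, was at 155, 141 and 159 TPM in DMSO, 28.5, 27.8 and 29.2 TPM in LPS, and 84.1, 60.015 and 108 TPM in LPS + Ska (1.49 over LPS, adjusted p = 4.3e-04). Thioredoxin reductase Txnrd1 (0.71, adjusted p = 7.5e-04) and the quinone reductase Nqo1 (1.72, adjusted p = 8.6e-04) rose as well, although Nqo1 was low, at 0.186, 0.413 and 0 TPM in LPS and 1.99 to 4.02 TPM in LPS + Ska. In all 4, as in Pgd, Taldo1, Me1 and Idh1, the LPS columns were the lowest of the groups. Glutathione reductase (Gsr) fell with LPS (-0.86, adjusted p = 7.0e-06), and its difference of LPS + Ska from LPS was 0.43 (adjusted p = 0.0020), inside the fold limit, like that of G6pdx. The NADPH oxidase subunit Cybb fell with LPS (-1.33, adjusted p = 7.5e-06). The inducible nitric oxide synthase Nos2 was listed at 0 in all DMSO columns, at 36.2 to 38.8 TPM in LPS and at 25.0 to 32.1 TPM in LPS + Ska.

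**Figure D5:**
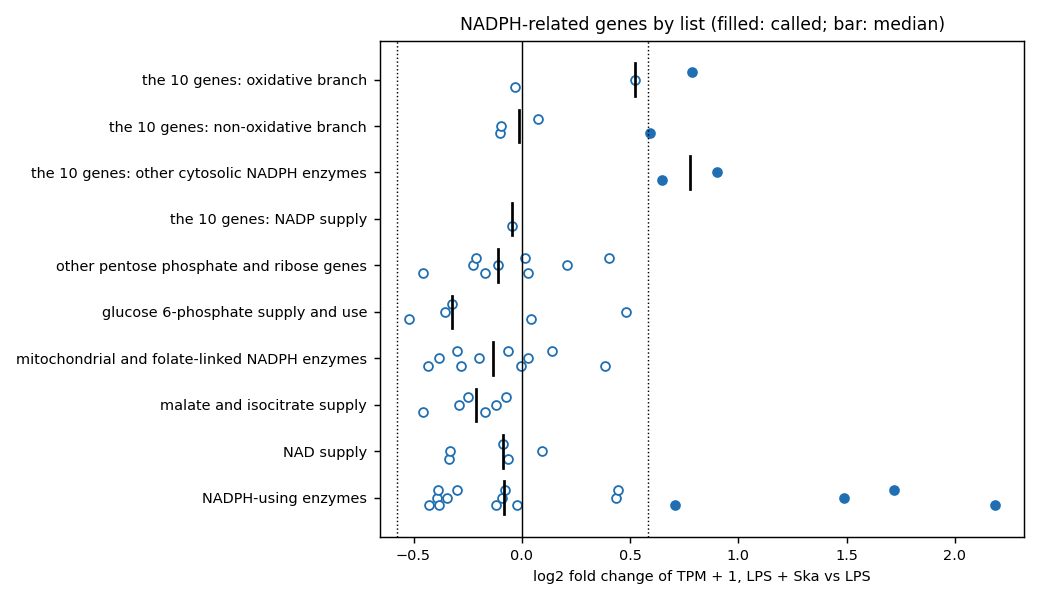
Log2 fold change of TPM + 1 for LPS + Ska and LPS (x axis) of the 10 genes by role and of the other NADPH-related genes by list (y axis), with filled points for called changes, a bar at each median and dotted lines at the fold limits. Filled points are Pgd, Taldo1, Me1, Idh1 and 4 enzymes that use NADPH, and all lie right of 0.

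The genes most like G6pdx, Tkt and Me1 over the 9 columns were found by the root mean square difference of log2(TPM + 1), each gene set to its DMSO mean, among 12818 tested genes. For G6pdx they were Tpst2 (0.0726), Fgd3 (0.0767) and Acaa1a (0.0825). Their log2 fold changes were -1.06, -1.20 and -1.12 with LPS and 0.49, 0.50 and 0.47 for LPS + Ska and LPS. For Tkt they included Nucb1 (0.0453) and Grk2 (0.0489), with changes of -0.57 and -0.56 with LPS. For Me1 they were Lrrc57 (0.0887), Selenos (0.102) and 4930579G24Rik (0.103), with 0.62, 0.55 and 0.69 for LPS + Ska and LPS. None of the 10 genes was among the nearest genes of these 3. Only the 3 nearest of 12818 genes were taken for each, so this absence does not bear on whether the 10 move together.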

How the data were processed

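RNA from RAW264.7 cells, 3 samples in each of 3 groups, was sequenced by the authors from a non-directional library kit. The authors deposited TPM for 55401 genes by Ensembl identifier, of which 55141 matched a symbol, and 0 columns belonged to no sample. The submitters' processing notes name fastp 0.20.1, HISAT2 2.2.1, StringTie 2.0 and mm10, and the annotation is not given in the sources used here. The tie between columns is not described there. No table of counts was used, so counting precision is unknown.

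Fold changes were estimated from the deposited columns with limma 3.58.1 in R 4.3.3, on log2(TPM + 1), with eBayes using an intensity trend and all 9 columns in 1 fit. The 12819 genes with a mean of at least 1 TPM were tested with Benjamini-Hochberg adjustment. A fold change on this scale understates that of low genes. The limma model was also run on simulated data, and the outcome is not given here. No conclusion about the adjusted p of the tied LPS and LPS + Ska columns is drawn from that run. The spread is that between columns labelled as replicates. Sums, ratios and ranks used TPM. Coordinates and overlaps came from GENCODE annotation of GRCm38, copies from minimap2 2.31 alignments of transcripts, and promoter windows from RefSeq GRCm38.p6. Copies were kept at 200 bases and 90% identity or more. The genes named were all members, called genes of the lists, and the 3 nearest genes of 3 members, of which 1 is not reported here. Me2, markers, overlapping genes and copies of the members were named beside the values they bear on. Members and lists were chosen with earlier results of these data known. Alternatives were another pseudocount, filter, scaling, fold limit and fit, a replicate block, recovered values and leaving out each column.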

Additional observations from a re-analysis of the deposited data

How the results depend on the processing

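The 30 log2 fold changes of the 10 genes (10 genes in 3 comparisons) were recomputed under 18 alternatives. Of the 540 values, 518 kept direction and side of the limits, 15 lost the call, 2 gained it and 5 turned sign. Of the 30 fold changes, 17 kept both under every alternative. Many of these values could not move. The other filters, the other fits and the replicate block left the log2 fold change as it was, so only its adjusted p could change. Leaving out a column of the group outside a comparison did the same. The count of 518 is thus not a measure of robustness. The sign turned only in LPS + Ska and LPS, for genes not called there. With median-ratio scaling these were Pgls (0.070), Tkt (0.0060) and Nadk (0.060). Leaving out 1 column gave -0.151 to 0.092 for Pgls, highest without LPS + Ska replicate 6, and -0.106 to 0.022 for Nadk, highest without LPS + Ska replicate 7. Fold limits of 2 and 0.5 left 0 genes higher and 3 lower for LPS and DMSO (4.27% and 7.24% of all tested genes), 0 higher for LPS + Ska and LPS (1.11%), and 0 higher and 1 lower for LPS + Ska and DMSO (4.05% and 9.63%). The adjusted p alone gave 3 genes higher for LPS and DMSO (26.2% of all tested genes) and 4 higher for LPS + Ska and DMSO (22.7%). With median-ratio scaling, 2 genes were lower for LPS + Ska and DMSO (17.5%). Leaving out each column gave 0 to 1 genes higher for LPS and DMSO and 0 to 2 higher for LPS + Ska and DMSO. Both lows were without DMSO replicate 5. A treated column left out removed no independent value, since the columns of its group are tied. With a replicate block the counts were 1 higher and 5 lower for LPS and DMSO, 4 and 0 for LPS + Ska and LPS, and 2 and 5 for LPS + Ska and DMSO, and no call of the 10 genes changed. Deviations of same-numbered samples correlated at -0.03 to 0.08 between DMSO and the treated groups, and at 0.13 to 0.38 between LPS and LPS + Ska, whose columns are tied, so the numbers were not taken to pair samples. For each treated group, 2 values were recovered at replicate 5 plus and minus 0.5 of its difference from replicates 6 and 7. That fraction is an assumption, is not given in the sources used here, and sets the spread of these values. The recovered values gave the same counts of the 10 genes. With these values the limma adjusted p for LPS + Ska and LPS was larger for each of the 4 called genes. It was 5.6e-04 for Pgd, 0.0014 for Taldo1, 0.0063 for Me1 and 4.3e-04 for Idh1. Over all tested genes, 2.8% were called higher and 4.92% lower in that comparison, against 3.35% and 6.14% in the main fit. Depth is unknown, and the precision of the treated groups rests on at most 2 independent values per gene.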
